A study of Mus musculus with 4 samples.

Results

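Arel1, Camk2g, Lrrc15, Rasgef1b, Ptgfrn, Pibf1 and Coro2a are 7 protein-coding genes that hold, inside the gene, some of the widest differences in DNA methylation between Tet2/Tet3 DKO and WT hair matrix keratinocytes. They were chosen from 21900 protein-coding genes because a listed region of at least 5 cytosine positions had a mean level more than 65 percentage points higher in the DKO. In all, 14 of 313641 listed regions of that many positions (0.00446%) met this bound, and 11 of the 14 overlapped a protein-coding gene, 7 of them in these genes and 4 in Casz1, Tnc, Setbp1 and Fut4, which are not described here in depth. The 11 genes are 0.0502% of the 21900. The choice rests on the same comparison as every level below, so the values describe these genes and no test was made on them.

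Whole-genome bisulfite sequencing was done on sorted primary hair matrix keratinocytes, the dividing cells of the follicle bulb that form the hair, from mice at postnatal day 4.5. There were 2 DKO libraries, from Tet2/Tet3 DKO mice carrying Krt14-Cre, and 2 WT libraries, whose labels give no Cre or other allele. Krt14 drives Cre in the basal epithelium and in follicle cells that descend from it, so cells of other lineages in a DKO sort would keep both genes. The labels do not say whether libraries came from separate animals. All levels are the authors' means over the libraries of a group, in percent of cytosines read as methylated, so no value per library, no depth and no replicate error stands behind them. The table's header names groups 1 and 2 without saying which is which, and group 1 was read as WT from the order of names in the table's title. Every direction would turn with the opposite order.

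TET enzymes oxidise 5-methylcytosine to 5-hydroxymethylcytosine and beyond, a route by which the mark is removed at enhancers and other regulatory DNA. Bisulfite conversion does not tell 5-hydroxymethylcytosine from 5-methylcytosine, and a level counts both together. Inside active genes, most CpGs are normally methylated, while CpG-dense promoters are kept free of the mark and distal regulatory elements tend to have intermediate levels.

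The 7 genes serve unrelated functions. Camk2g encodes the gamma subunit of calcium/calmodulin-dependent kinase II, and Rasgef1b an exchange factor that, as shown for the human protein, acts on Rap GTPases. Lrrc15 encodes a leucine-rich repeat membrane protein, known in human tumours as a marker of activated fibroblasts, and Ptgfrn an immunoglobulin-domain protein that binds tetraspanins. Coro2a encodes a WD-repeat coronin of the actin cytoskeleton that is also found with the NCoR corepressor, Pibf1 a centriolar satellite protein needed for cilia, and Arel1 a HECT-type ubiquitin ligase that opposes apoptosis in human cells.

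The promoter sequences of 3 of the genes are shown because the data bear on them directly: a listed region that overlaps each had almost no methylation in either genotype, although the gene holds a gain of over 65 points elsewhere. That region holds all 250 bases shown for Rasgef1b and for Ptgfrn, but 109 of the 250 at the upstream Coro2a start, where the other 141 bases have no listed level. Coro2a is shown at both of its recorded starts, since the internal start is poor in CpG and lies close to a wide gain. Each run is the 250 bases before the recorded start, 5′ to 3′, from RefSeq on GRCm38.p6, with every CG in capitals.
Rasgef1b, chr5:99252928-99253177, minus strand: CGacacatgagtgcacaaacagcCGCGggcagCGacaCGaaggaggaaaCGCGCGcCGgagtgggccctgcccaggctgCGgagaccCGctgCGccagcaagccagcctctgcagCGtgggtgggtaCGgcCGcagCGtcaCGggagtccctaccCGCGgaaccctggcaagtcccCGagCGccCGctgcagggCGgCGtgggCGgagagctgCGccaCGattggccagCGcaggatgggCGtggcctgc
Ptgfrn, chr3:101110167-101110416, minus strand: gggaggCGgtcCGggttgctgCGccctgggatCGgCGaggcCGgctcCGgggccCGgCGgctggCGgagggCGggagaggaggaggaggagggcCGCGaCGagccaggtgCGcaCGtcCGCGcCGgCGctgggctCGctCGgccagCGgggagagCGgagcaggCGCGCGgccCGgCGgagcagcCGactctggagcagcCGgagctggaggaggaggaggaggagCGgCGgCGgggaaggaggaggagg
Coro2a upstream start, chr4:46601930-46602179, minus strand: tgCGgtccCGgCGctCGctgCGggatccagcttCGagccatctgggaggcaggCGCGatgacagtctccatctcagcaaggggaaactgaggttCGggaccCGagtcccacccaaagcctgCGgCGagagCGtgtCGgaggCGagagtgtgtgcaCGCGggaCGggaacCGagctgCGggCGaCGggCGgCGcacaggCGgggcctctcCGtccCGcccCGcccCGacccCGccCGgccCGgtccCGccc
Coro2a internal start, chr4:46566441-46566690, minus strand: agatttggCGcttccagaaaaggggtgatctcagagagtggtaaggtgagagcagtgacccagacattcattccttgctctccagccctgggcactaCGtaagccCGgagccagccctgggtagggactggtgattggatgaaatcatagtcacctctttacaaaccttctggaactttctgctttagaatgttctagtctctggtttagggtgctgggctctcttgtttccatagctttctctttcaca
The motif CG reads the same on both strands, and 92.1% of 32851 recorded promoters hold at least 1 in these 250 bases, with a median of 6. The Rasgef1b sequence holds 29, that of Ptgfrn 34 and that of the upstream Coro2a start 33, more than 93.2%, 96.5% and 96.0% of all promoters in that order. The internal Coro2a start holds 3, more than 29.0% of promoters. Starts were recorded for 6 of the 7 genes. Lrrc15 and Pibf1 had 11 CG each and the recorded start of Arel1, which lies inside the gene, had 0.

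The listed regions at the promoters of 3 genes had almost no methylation in either genotype. The region across the Rasgef1b start (chromosome 5, 99251439 to 99253511) was at 3.32% in the DKO and 2.66% in the WT. Levels across the Ptgfrn start (chromosome 3, 101109423 to 101110743) were 3.22% in the DKO and 3.06% in the WT, and those of the region at the upstream Coro2a start (chromosome 4, 46601758 to 46602038) were 2.23% in the DKO and 2.11% in the WT. A like region spans the high-coordinate end of Camk2g (chromosome 14, 20793133 to 20794491), with 4.16% in the DKO and 3.37% in the WT. These were the 4 regions of the 7 windows with a WT level under 10%, and none of them gained 20 points. No share was made over all listed regions of such a level, so this is not read as particular to these genes. The Ptgfrn region also overlaps the predicted coding gene Gm52612. No listed region crossed the promoters of Lrrc15, Pibf1, Arel1 or the internal Coro2a start, which says nothing about their level.

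The nearest gain lay within 2 kb of each of these 3 promoters. The gain nearest to the Rasgef1b promoter lay 644 bp from the bases shown and was at 66.5% in the DKO against 37.0% in the WT. The nearest to the Ptgfrn promoter lay 1942 bp away, outside the gene, at 56.1% in the DKO and 25.4% in the WT. The nearest to the upstream Coro2a promoter lay 1076 bp away, at 69.3% in the DKO and 46.6% in the WT. At the internal Coro2a start, a region 753 bp upstream of the bases shown (chromosome 4, 46567443 to 46568871) was at 85.7% in the DKO and 36.2% in the WT. The internal start is thus the one with the wider gain beside it, 49.5 points against 22.7 points near the upstream start.

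Over the gene bodies with 5 kb on either side, the authors' table lists 224 regions in the 7 windows, and 78 of them (34.8%) gained at least 20 points in the DKO. Of all 484555 listed regions, 22.9% did so, and since the genes were chosen for gains in this comparison nothing is read from the difference. By any amount, 173 of the 224 were higher and 51 were lower in the DKO, where 48.2% of all listed regions were higher. None of the 224 was lower by 10 points or more, a loss found in 2.54% of listed regions, and the lowest difference was -7.43 points, in Coro2a. Such a loss lay in the windows of 8.50% of all protein-coding genes. Both shares include the X chromosome, while the 7 genes are autosomal, and no share was made for autosomes alone.

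Gains covered 15.0% of the Rasgef1b window, 12.5% of that of Camk2g, 11.1% of that of Arel1, 9.98% of that of Ptgfrn and 7.89% of that of Lrrc15. The windows of Coro2a and Pibf1 were covered to 5.22% and 4.28%. All 7 values lay above the mean of all protein-coding genes (2.67%) and above their median (1.29%). Coverage counts the gains for which the genes were chosen, so nothing is read from this. The order of the genes by coverage was not their order by widest gain, since Pibf1 had the widest single gain of the 7 and the lowest coverage. The windows held between 3 (Lrrc15) and 16 (Pibf1) such gains, and 6 of the 7 held 9 or more, as did 9.80% of all protein-coding genes. The bound of 9 equals the count of Coro2a, the lowest of these 6, so nothing is read from this share either. The genes are between 14.0 kb (Lrrc15) and 155 kb (Pibf1) long, and a longer gene can hold more regions.

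**Figure D1:**
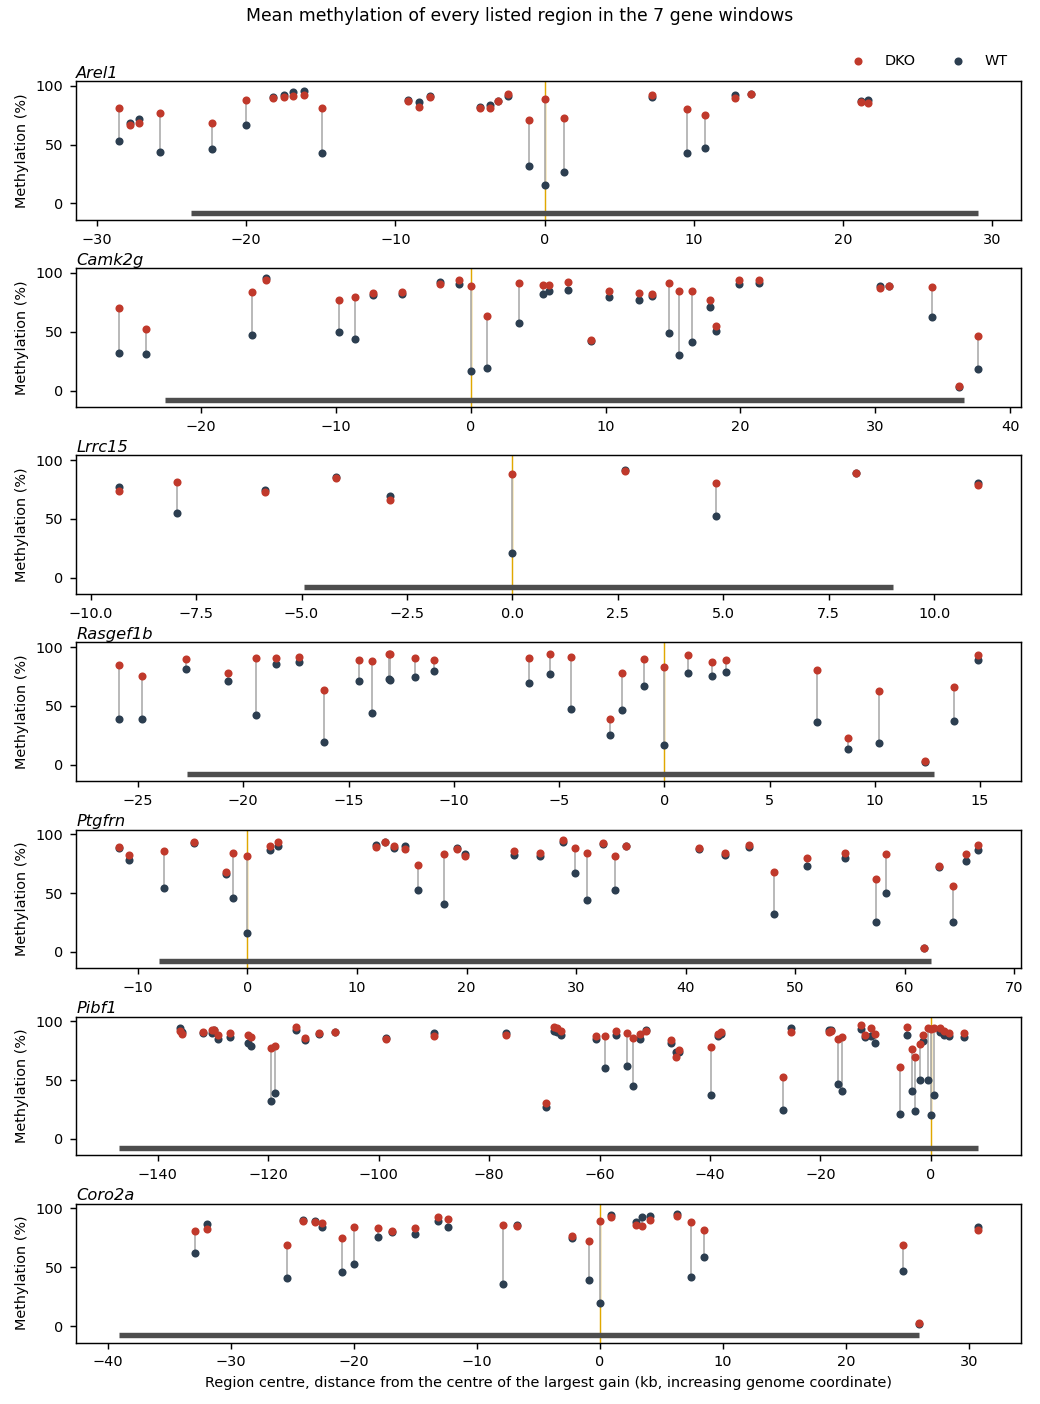
Mean methylation in percent (vertical axis) of every listed region in the 7 windows, DKO in red and WT in dark blue and joined by a line, against the distance in kb of the region's centre from the centre of the gene's largest gain (horizontal axis, yellow line at 0). The dark bar under each panel is the gene. Of the 224 regions 110 are at 80% or more in the WT, but in Rasgef1b only 5 of 30 are, and the regions near 3% at the ends of Camk2g, Rasgef1b, Ptgfrn and Coro2a are alike in both.

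Gains were found mostly among regions of low or intermediate WT level. Of the 65 regions with a WT level of 20% to 60%, 61 gained at least 20 points, where 79.1% of all listed regions of such a level did. Of the 10 at 10% to 20%, 9 gained as much, and 60.1% of all listed regions at that level did. Among these 9 are the largest gains of Arel1, Camk2g, Rasgef1b, Ptgfrn and Coro2a, and those of Lrrc15 and Pibf1 are among the 61. At 60% to 80% the count was 8 of 35, against 9.34% of all listed regions. Among these 8 are the Rasgef1b gains with WT levels of 67.0% to 72.7%. They have a positive statistic in the authors' deposited table, as described below for that gene, and the count of 8 rests in part on them. The genes were chosen for gains in this comparison, so nothing is read from these counts against the shares of all listed regions. The 110 regions at 80% or more in the WT leave no room for a rise of more than 20 points, and their differences ran from -7.43 to 9.06 points. Their median level was between 86.8% (Lrrc15) and 91.2% (Rasgef1b) in the DKO and between 85.7% (Rasgef1b) and 90.4% (Arel1) in the WT.

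A few regions of intermediate level did not gain. In Camk2g, a region of 46 positions (chromosome 14, 20765942 to 20767078) was at 43.3% in the DKO and 42.5% in the WT, and a region of 6 positions (20775735 to 20775834) was at 54.9% in the DKO and 50.3% in the WT. In Pibf1 a region of 4 positions (chromosome 14, 99176672 to 99176708) was at 30.7% in the DKO and 26.9% in the WT. In Rasgef1b a region of 23 positions (chromosome 5, 99237061 to 99238029) reached 38.6% in the DKO, against 25.1% in the WT. The Camk2g region of 46 positions lies 7922 bp from the largest gain of the same gene, so neighbouring DNA of the same gene differed by 71.5 points in the one place and 0.81 points in the other.

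**Figure D2:**
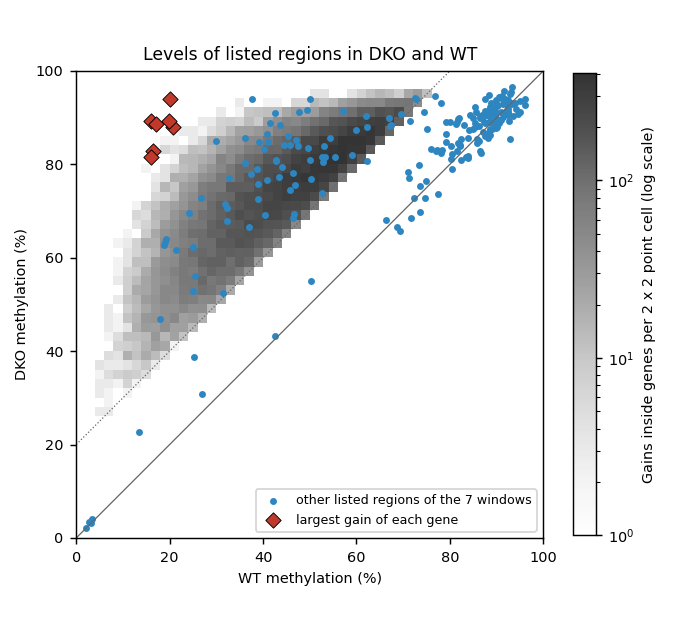
DKO level (vertical axis, percent) against WT level (horizontal axis, percent) of the listed regions. Red diamonds are the largest gain of each of the 7 genes, blue points are the other listed regions of their windows, and the grey scale counts, on a log scale, the 45315 gains of at least 20 points and at least 5 positions inside protein-coding genes. The solid line marks equal levels and the dotted line a gain of 20 points. The 7 diamonds sit between 81.6% and 93.9% in the DKO and between 15.9% and 20.8% in the WT, at the upper left edge of the grey cloud.

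The largest gain of each gene combined a low WT level with a high DKO level. In the 7 regions, the DKO level was 81.6% to 93.9% (median 88.5%) and the WT level 15.9% to 20.8% (median 17.0%). Over the 45315 gains of at least 20 points and at least 5 positions inside protein-coding genes, the median was 76.8% in the DKO and 44.9% in the WT. The rule used these levels, so this is a description of what it picked. Other properties varied widely among the 7. Their lengths ran from 34 bp (Pibf1), shorter than all but 0.468% of the comparison gains, to 1852 bp (Ptgfrn), longer than 98.9% of them. They held 6 positions in Pibf1 and Coro2a and 61 in Ptgfrn, where the strands of a CpG mostly count as separate positions. There was 1 position per 5.67 bp in Pibf1 and per 38.5 bp in Coro2a, around a median of 29.5 bp in the comparison gains. The sequence of these regions is not shown, as no genome was used here, and the annotation used gives gene ends but no exons.

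Camk2g held its largest gain at chromosome 14, 20757109 to 20758019, a region of 911 bp and 57 positions at 38.3% of the gene's length from its low-coordinate end. Its level was 88.5% in the DKO and 17.0% in the WT, 71.5 points apart, with a spread estimate of 3.46 points in the authors' deposited table, which is their own value and no SD between libraries. The region had one sharp and one graded side. On the low-coordinate side, 386 bp away, a pair of positions was at 94.4% in the DKO and 90.5% in the WT, and on the other side, 328 bp away, a region of 27 positions was at 63.4% in the DKO and 19.0% in the WT. A second site of wide gains lay farther along the gene, where a region of 18 positions (20772729 to 20773278) was at 84.9% in the DKO and 29.8% in the WT and the next (20773655 to 20774280) at 84.8% in the DKO and 41.2% in the WT. Of the 13 gains in the window 10 overlapped the gene, and 2 others overlapped the neighbouring heparan sulfate enzyme gene Ndst2.

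Rasgef1b had the broadest rise of the 7 genes. All 30 of its listed regions were higher in the DKO, from 0.66 points at the promoter upwards, and the median difference was 19.4 points, against -0.764 to 5.70 points in the other 6 genes. Among protein-coding genes with at least 10 listed regions, 2.89% had every one higher. In 15 regions the gain was at least 20 points, and in 8 of these at least 40 points. The authors' statistic did not run the same way for all of them. In that column of the authors' deposited table, 5 of the 15 gains, of 21.1 to 31.6 points and 3 of them of a single position, have a positive statistic (listed maxima of 1.53 to 4.00), opposite in sign to the other 10 and to the largest gain of every gene. No gain in the other 6 windows does, and 188 of all 111028 listed gains (0.169%) do. Of the 30 regions higher in Rasgef1b, 20 (66.7%) have a positive statistic in the authors' deposited table, as do 47.5% of all listed regions that are higher in the DKO. The share is not particular to Rasgef1b. It was 66.7% in Pibf1, 63.6% in Ptgfrn, 55.2% in Camk2g, 44.4% in Coro2a, 16.7% in Arel1 and 0% in Lrrc15. With the 5 gains of positive statistic left out, a choice made after the values were seen, Rasgef1b keeps 10 gains over 12.7% of its window. All 8 of at least 40 points are among the 10. The largest, of 692 bp and 30 positions (chromosome 5, 99239760 to 99240451), was at 82.9% in the DKO and 16.4% in the WT. Its spread estimate of 4.71 points in the authors' deposited table was higher than that of 95.6% of the comparison gains. The regions on either side, 357 and 360 bp away, were at 90.0% and 93.1% in the DKO and at 67.0% and 78.1% in the WT. The region lies 12.8 kb downstream of the recorded start, measured from its centre. Closer to the start, a region at 99249742 to 99250905 was at 62.7% in the DKO and 18.8% in the WT, and near the end of the gene one at 99223627 to 99224233 was at 63.9% in the DKO and 19.3% in the WT. Gains of over 40 points were thus spread along the gene.

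Lrrc15 had the most isolated gain of the 7, judged by its listed neighbours alone. Its largest region, of 1141 bp and 49 positions (chromosome 16, 30273662 to 30274802), was at 87.9% in the DKO and 20.8% in the WT. It lies 9.02 kb from the recorded start, measured from its centre. The neighbouring listed regions, 2187 and 1640 bp away, differed by -3.48 and -0.36 points. The bases between have no listed level, so a rise there cannot be seen. The largest region made up 60.3% of all gained bases in the window, and 7 of the 10 listed regions were lower in the DKO by at most 3.81 points. The other 2 gains were a region of 15 positions inside the gene, at 80.5% in the DKO and 52.8% in the WT, and a region of 19 positions in the flank, at 81.6% in the DKO and 55.4% in the WT, which overlaps the neighbouring gene Cpn2.

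Ptgfrn held its largest gain near the end of the gene, 61.9 kb from the recorded start. The region, of 1852 bp and 61 positions (chromosome 3, 101047371 to 101049222), was the longest of the 7 and was at 81.6% in the DKO and 15.9% in the WT. A short region 380 bp away, of 4 positions, was at 84.1% in the DKO and 45.7% in the WT, while the region 960 bp away on the other side was at 90.4% in the DKO and 86.4% in the WT. The remaining gains were smaller, with a second largest of 42.9 points in a region of 177 bp (101066189 to 101066365, 83.2% in the DKO and 40.3% in the WT). Between 101105326 and 101106814, on the promoter side of the gene, a pair of regions stood at 62.3% and 83.5% in the DKO and at 25.0% and 49.7% in the WT. The gain of 65.7 points is the smallest of the 7 and lies just inside the bound.

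Coro2a and Pibf1 owe their place to short regions. The largest gain of Coro2a (chromosome 4, 46575896 to 46576126) had 231 bp and 6 positions, at 89.2% in the DKO and 19.9% in the WT. It lies 25803 bp from the upstream start, between that and the internal start. On one side, 645 bp away, a region of 20 positions was at 72.5% in the DKO and 38.9% in the WT, and on the other, 729 bp away, levels were 93.2% in the DKO and 94.0% in the WT. With at least 10 positions required, the largest gain of Coro2a would be 49.5 points, in the region of 63 positions beside its internal start.

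Pibf1 had its largest gain in 34 bp with 6 positions (chromosome 14, 99246408 to 99246441), at 93.9% in the DKO and 20.2% in the WT. This is 0.48% of the gained bases of its window, and with at least 10 positions the largest gain of the gene would be 45.6 points. The short region does not stand alone. The listed region next to it on one side, of 11 positions, was at 94.0% in the DKO and 50.1% in the WT. That on the other side, of only 4 positions, was at 94.0% in the DKO and 37.7% in the WT. Within 5 kb of the short region, 5 of the 10 other listed regions gained at least 20 points. The longest of these (99243317 to 99243892), of 22 positions, was at 69.5% in the DKO and 24.0% in the WT. The gains at 99242909 to 99243003 and at 99244373 to 99244374 had only 4 and 2 positions. Pibf1 is the longest of the genes, and 15 of its 16 regions with a WT level of 20% to 60% gained at least 20 points.

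Arel1 showed a gain with graded flanks. Its largest region (chromosome 12, 84941667 to 84942060), of 394 bp and 28 positions, was at 89.2% in the DKO and 16.0% in the WT. The regions on either side, 520 and 553 bp away, were at 71.4% and 72.9% in the DKO and at 31.8% and 26.8% in the WT. Together the 3 regions span 3.19 kb (84940490 to 84943674), with gains of 39.6, 73.1 and 46.1 points in genome order. The span lies 3250 bp downstream of the 250 bases before the recorded internal start. Another wide gain, of 47 positions at 84950477 to 84952326, was at 80.6% in the DKO and 42.7% in the WT. Of the 28 listed regions in the window, 10 gained at least 20 points. One outside these sites (84926560 to 84927390, 32 positions) was at 80.9% in the DKO and 42.8% in the WT. Another 16 of the 28 were lower in the DKO, by at most 4.33 points, where 48.2% of all listed regions were higher.

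How far the rise was confined to a single place differed between the genes. The largest gain made up 60.3% of the gained bases in the window of Lrrc15, 23.0% in Ptgfrn, 10.6% in Camk2g, 10.2% in Rasgef1b, 5.90% in Coro2a, 5.64% in Arel1 and 0.48% in Pibf1. Lrrc15 also had the shortest window and the fewest gains (24.0 kb and 3), and Pibf1 the longest and the most (165 kb and 16). The part of window length and number of gains in the order of these shares was not tested. Within 5 kb of the largest gain, the other listed regions that gained at least 20 points were 5 of 10 in Pibf1 and 3 of 8 in Rasgef1b. They were 2 of 6 in Arel1 and in Camk2g, and 1 of 5 or 1 of 6 in Lrrc15, Ptgfrn and Coro2a. Gained regions in unbroken sequence with gaps of at most 1 kb spanned 1.14 kb in Lrrc15 and 3.19 kb in Arel1, the shortest and the longest of the 7. In the authors' deposited table, the Rasgef1b gains at 99238083 and at 99238913 to 99239402, both counted here, have a positive statistic. Without them the Rasgef1b sequence, of 2.37 kb, would be its largest gain alone, of 692 bp, which is shorter than that of Lrrc15. The widest gain of a gene stood well apart from its second widest in Lrrc15 (67.1 against 27.7 points) and least in Camk2g (71.5 against 55.04 points).

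**Figure D3:**
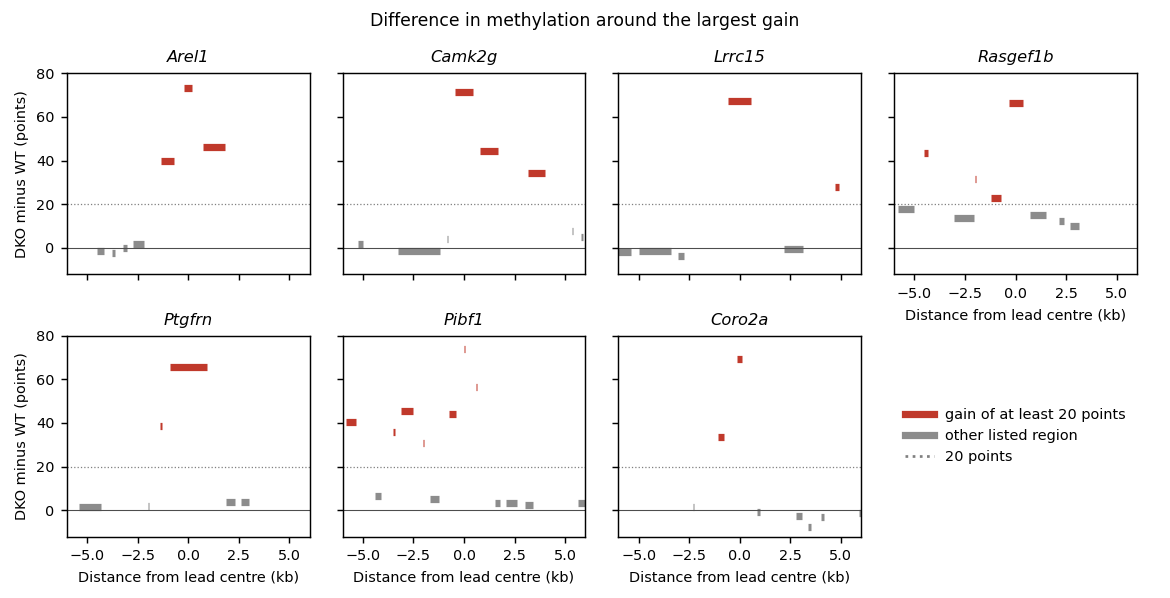
Difference in mean methylation, DKO minus WT in percentage points (vertical axis), of the listed regions within 6 kb of the centre of each gene's largest gain (horizontal axis, kb, in increasing genome coordinate). Each bar spans its region, red for a gain of at least 20 points and grey for any other listed region. In Lrrc15 the nearest listed neighbours of the bar of 67.1 points are near 0, in Arel1 it has flanks of 39.6 and 46.1 points, and in Rasgef1b no listed neighbour is below 0.

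The largest gains also differed in how far the authors' statistic of their weakest position lay from the mean per position. For a region whose summed statistic is negative, as in these 7, the listed maximum is that of the weakest position, since the mean per position was at or below it in 122576 of 122576 regions of negative sum. In the authors' deposited table, the weakest position of the largest gain was at -16.58 in Pibf1, -15.27 in Arel1, -15.24 in Coro2a and -12.43 in Camk2g, with means per position of -16.66, -16.03, -18.77 and -17.63. In Ptgfrn the weakest position was at -5.18 and the mean at -15.99, and in Lrrc15 they were at -8.88 and -15.64, again from the authors' deposited table. Rasgef1b had the lowest mean size of the 7, -6.88 in the authors' deposited table, with a weakest position of -4.45. Of the 7 regions, that of Pibf1 had its weakest position closest to the mean and that of Ptgfrn farthest from it. These are also the shortest region, of 34 bp and 6 positions, and the longest, of 1852 bp and 61 positions. The part of length in this difference was not tested.

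**Figure D4:**
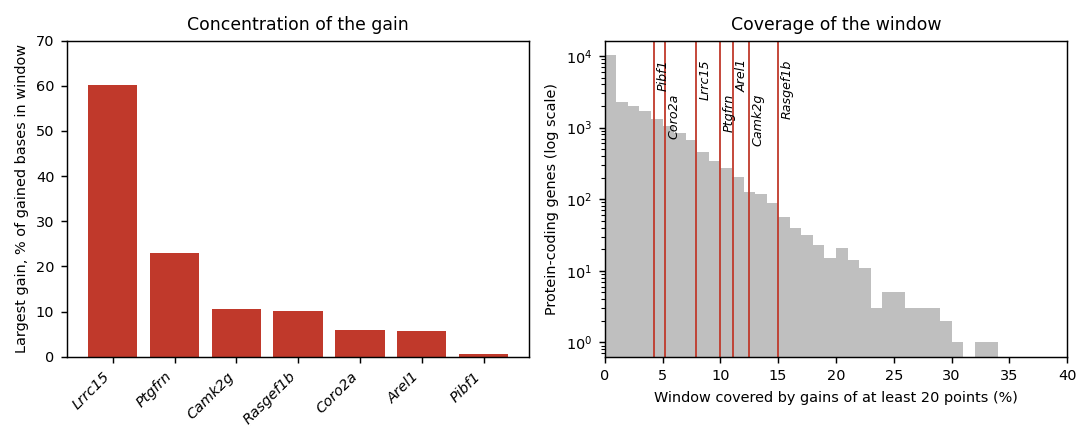
Left, the share of all gained bases in the window that the largest gain holds (vertical axis, percent), for each gene, from 60.3% in Lrrc15 to 0.48% in Pibf1. Right, the number of protein-coding genes (vertical axis, log scale) by the percent of the window that gains of at least 20 points cover (horizontal axis), with red lines for the 7 genes between 4.28% (Pibf1) and 15.0% (Rasgef1b).

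The bound of 65 points runs through a dense range. Just inside it lay Ptgfrn at 65.7 points and Rasgef1b at 66.4 points among the 7 genes, and Tnc (65.5), Setbp1 (65.3) and Fut4 (65.04) among the others. Just outside it lay regions in Arl15 (64.99 points), Bckdha (64.87), Gnptab (64.86) and Tshz2 (64.85). Casz1, a zinc finger factor, had the widest gain among listed regions of at least 5 positions, 75.1 points over 72 positions. The genes whose largest gain was nearest to the median pair of levels of the 7 were Tnc, Fut4, Casz1, Bckdha and Tnik, at distances of 4.57 to 5.23 points over the 2 group means. The Tnc region (tenascin C, a matrix glycoprotein) was at 84.4% in the DKO and 18.9% in the WT, and that of Tnik, a kinase of the Wnt pathway, was at 84.0% in the DKO and 19.5% in the WT.

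Relatives of the 7 genes held gains as well, none of them as wide. The 7 genes were chosen for the width of their gains, so nothing is read from that order. Of 48 related genes, 41 had a region that gained at least 20 points in their window, where 64.4% of all protein-coding genes did, and their median coverage was 1.85%, against 1.29% over all genes. The genes were not matched on length. All 3 other CaM kinase II genes held such a gain, with the largest in Camk2a (37.96 points, 65.8% in the DKO and 27.8% in the WT), and both other RasGEF1 genes did, with the largest in Rasgef1a (84.8% in the DKO and 47.9% in the WT). All 6 other coronins held one, and Coro7 had the largest, 75.2% in the DKO and 28.3% in the WT. Among the 3 relatives of Ptgfrn, Igsf3 led with 80.2% in the DKO and 32.1% in the WT. Of the leucine-rich repeat genes Cpn2 held gains, the largest at 84.0% in the DKO and 43.5% in the WT, and Gp5, a platelet glycoprotein, held none.

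Of the 24 HECT ligases, 21 held a gain of at least 20 points, with a median coverage of 1.25%. The widest was in Nedd4l, which directs ion channels to degradation, at 82.5% in the DKO and 19.7% in the WT, 62.8 points apart. Of the 8 centriolar satellite genes, 5 held one, and the widest was in Ssx2ip, at 73.6% in the DKO and 27.4% in the WT. Arel1 had 11.1% of its window covered, where the highest of the other HECT ligases had 8.87% (Ube3b). Pibf1 at 4.28% stood below Ssx2ip at 9.43%. Some relatives also held a region lower by at least 10 points in the DKO. These were 2 of the 3 other CaM kinase II genes and 5 of the 24 HECT ligases. Such a region lay in the windows of 8.50% of all protein-coding genes. No gene in the other related lists held one.

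A table of methylated regions holds no RNA and no reads over the deleted exons, so neither the cell type nor the deletion was checked. The windows of Tet2 and Tet3 held 10 and 13 gains of at least 20 points, over 3.15% and 8.22% of the window, where the median of all protein-coding genes is 1.29%. By median coverage, 5 genes of hair matrix and follicle epithelium (Krt14, Krt5, Lef1, Msx2, Hoxc13) were at 11.8%, and marker genes of further skin cell types had 2.67% for melanocytes, 5.24% for fibroblasts, 1.21% for immune cells and 1.59% for endothelium. Gains were found in 4 of 5, 4 of 5, 5 of 5, 4 of 5 and 3 of 5 genes of these lists in the same order, where 64.4% of all protein-coding genes held one, so lists of 5 genes at 3 or 4 lie near that share. The part of other cell types in the levels of the 7 genes was not tested.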

How the data were processed

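Whole-genome bisulfite reads of 2 DKO and 2 WT libraries were processed with Trim Galore and Bismark on GRCm38/mm10, per the submitters' processing notes. How regions were called, smoothed and filtered is not given in the sources used. The deposited table gives each region a mean methylation fraction per group, used here as percent, with a statistic and a spread estimate treated as scores, per the file headers. It has no p-value, no count and no value per library, so depth is unknown, precision cannot be given and no test was made.

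A region was assigned to a gene when it overlapped the RefSeq gene (GRCm38.p6) with 5 kb on either side by at least 1 bp. Gains are DKO minus WT of at least 20 points. The largest gain is that of a region of at least 5 positions. Coverage is the union of gained regions over the window. The overlap code was tested on simulated data. The 7 genes, the gene lists and the alternatives were chosen with earlier results of these data known, and the sequence of adjoining gains and the use of the statistic's maximum and sign were added after the values were seen. Named genes are the 7 genes, Tet2, Tet3, the genes past or next to the bound, the 5 nearest in level, the widest of each related list and, chosen after their values were seen, Gp5 and Ube3b. Outside this rule, Ndst2, Cpn2 and Gm52612 are named as neighbours that overlap a region, and Krt14, Krt5, Lef1, Msx2 and Hoxc13 as a marker list. The tools were matplotlib 3.10.9, pandas 2.3.3, numpy 2.4.6, scipy 1.17.1 and Python 3.11.15.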

Additional observations from a re-analysis of the deposited data

How the results depend on the processing

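No paired analysis was possible because the table holds group means and no values per library, and for the same reason no library could be left out. The main values were 224 listed regions, 78 gains, 8.30% of the 7 windows covered when pooled, and a median of 10.2% of gained bases in the largest gain. With at least 10 positions per region these became 136, 51, 7.58% and 11.0%, and the largest gains fell to 45.6 points in Pibf1 and 49.5 points in Coro2a. Coverage was 7.86% with 10 kb on either side, 9.60% with neighbours of the same direction within 500 bp merged, 8.98% for gains of at least 10 points and 6.82% for gains of at least 30 points. The share in the largest gain was 13.0% for gene bodies, 9.75% with 10 kb, 10.3% with at least 5 positions, 11.3% after merging, and 6.68% and 12.1% for gains of at least 10 and 30 points. Merging took the largest gain to 48.4 points in Rasgef1b, 43.1 in Pibf1, 61.4 in Camk2g and 64.0 in Ptgfrn, all under the bound of 65. Counting gains of negative statistic alone, an alternative chosen after seeing the data, left 73 gains, 8.10% covered and 10.6% in the largest gain. Per gene, 54 of 56 coverage values stayed within 1.5 times. The exceptions were Rasgef1b at 22.8% for gains of at least 10 points and Lrrc15 at 4.76% for gains of at least 30 points. The counts of listed regions, gains and related genes with a gain stayed within 1.5 times under every other alternative run. Without values per library or depth, none of these differences has an error.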
